A study of Mus musculus with 6 samples.

Results

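Aminoacyl-tRNA synthetases were followed in the liver of 6 mice on 2 diets. These enzymes join each amino acid to its transfer RNA, the step that fixes which amino acid a codon is read as. The members were the genes on the array whose name is a listed synthetase, 20 for enzymes of the cytosol and 16 for enzymes of the mitochondrion, 36 genes in all, against 19616 features tested on the whole array. They were represented by 45 probes, of which 42 passed the background filter, and 35 of the 36 genes could be tested. Nars2, the mitochondrial asparaginyl enzyme, did not pass.

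All 6 mice were male C57BL/6 animals, 5 weeks old at the start. All had received the same transposon vector by hydrodynamic injection into the tail vein, a rapid large-volume injection that delivers DNA to liver cells. The vector carried HrasG12V, shp53 and GFP4, which per the labels gives a transgenic mouse with liver cancer, so the control mice carried it too. RNA came from liver outside the tumours. The control group of 3 mice ate a standard laboratory diet and the restricted group of 3 mice ate a diet moderately restricted in carbohydrate. The sample titles call both diets supplemented and do not say with what. The series text adds multiple phytochemicals to the restricted diet, which the sample labels do not name. The feeding times differ too: a preliminary week and then 5 weeks of diet by the sample labels, 2 weeks and then 4 weeks by the series text. Each mouse gave 1 single-colour Agilent array. The question put to the members was whether the mitochondrial and the cytosolic enzymes differed between the diets in the same way.

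Mitochondria keep a protein synthesis machinery of their own, with ribosomes and transfer RNAs that serve the few proteins encoded in mitochondrial DNA, all of them subunits of the respiratory chain and ATP synthase. The enzymes that charge those transfer RNAs are encoded in the nucleus, mostly by a gene separate from that of the cytosolic enzyme, and are imported; their symbols end in 2. Gars and Kars are exceptions, since each gene gives rise to both the cytosolic and the mitochondrial form. In the cytosol, several synthetases are held in a multisynthetase complex by the scaffold proteins encoded by Aimp1, Aimp2 and Eef1e1. The liver is rich in mitochondria and makes most plasma proteins, so both sets of enzymes are in use there.

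Values are given as log2 of the processed signal relative to the 75th percentile of the same array, so 0 is a signal equal to that percentile and a step of 1 is a factor of 2. They are set against each other only within a probe, because probes differ in how brightly they bind. A gene was called when limma's moderated test gave an adjusted p under 0.05 after Benjamini-Hochberg adjustment over all 19616 features. Of all features 27.5% were called, 14.6% higher on the restricted diet and 12.8% lower, and the median difference over all features was 0.12. The 75th percentile of signal was 287 to 574 over the arrays, and 23527 to 25816 of 39429 probes were well above background. Precision is limited by having 3 arrays for each diet. Slide 1 held the 3 control mice and restricted mouse 1, and slide 2 held restricted mice 2 and 3, so beyond that 1 mouse the slide and the diet cannot be told apart.

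The diets differed for mitochondrial synthetases and in no cytosolic one by the same test. Of 15 mitochondrial enzymes 5 were called higher on the restricted diet, which is 33.3% against 14.6% of all features, and none was called lower. Of 20 cytosolic enzymes none was called in either direction, where 2 had an unadjusted limma p under 0.05, Kars and Wars. The median difference was 0.59 over the mitochondrial enzymes, 0.47 above the median of all features, and 0.10 over the cytosolic enzymes, 0.03 below it. The difference was above 0 for 13 of 15 mitochondrial and 13 of 20 cytosolic enzymes, against 57.9% of all features. All 3 restricted mice lay above all 3 control mice for 10 of the 15 mitochondrial enzymes (66.7%) and for 2 of the 20 cytosolic ones (10%), against 26.1% of all features. The restricted mice all lay below the controls for no mitochondrial and 2 cytosolic enzymes, against 18.8% of all features. At the looser threshold of 0.10 on the adjusted p, 9 of 15 mitochondrial enzymes and 1 of 20 cytosolic enzymes passed, against 36.2% of all features.

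**Figure D1:**
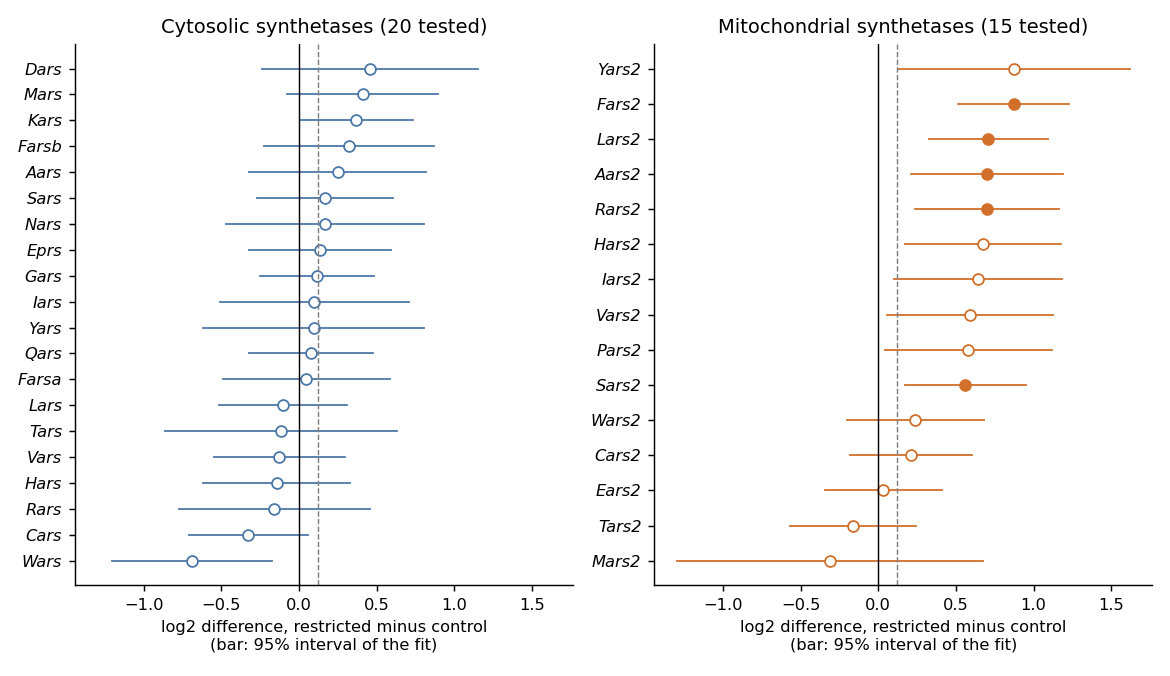
Difference in log2 signal, restricted minus control, for the 20 cytosolic and 15 mitochondrial synthetases tested, with the 95% interval of the limma fit; filled points were called and the dashed line is the median over all features, 0.12. The 5 filled points are all mitochondrial, and the 20 cytosolic points run from -0.69 for Wars to 0.46 for Dars.

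The count of calls moved with the slide and with single mice. With the slide as a block in the fit, 1 mitochondrial enzyme was called, Fars2 with an adjusted p of 0.0483, and in slide 1 alone (restricted mouse 1 against the 3 controls, taking the lone mouse to vary like the controls) none was. The mitochondrial median within slide 1 was 0.46 and the cytosolic one 0.24. Without control mouse 1 or without any single restricted mouse 1 enzyme was called, and without control mouse 2 there were 2. Features called higher were 2868 of 19616 in the main fit. They were 1765 without control mouse 1, 1594 without control mouse 2, and 2091, 1549 and 1962 without restricted mice 1 to 3. Where 1 mouse was left out and 1 enzyme called, that share was below the share of all features. Without control mouse 3 there were 7 enzymes and 3319 features. With the slide as a block 1121 features were called higher. Later counts under these settings are to be set against the same totals.

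Fars2 encodes the mitochondrial phenylalanyl-tRNA synthetase, a single-chain enzyme unlike its cytosolic counterpart. Its values were 2.59, 2.66 and 2.70 in control mice 1 to 3 and 3.56, 3.50 and 3.51 in restricted mice 1 to 3. The mice of each diet lay close together and the diets were far apart, with SDs of 0.06 and 0.03 (n = 3 each). The difference was 0.87 with a standard error of 0.15, or 1.83-fold (adjusted p = 0.00653), and within slide 1 it was 0.91. Fars2 was called under 17 of 18 other settings of the analysis, all but slide 1 alone. The slide block is among the 17, and it too rests on restricted mouse 1 against the controls, with the same difference of 0.91. Of the 18 settings, Lars2 was called under 12, Rars2 and Aars2 under 9 each, and Sars2 under 8.

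Lars2, the mitochondrial leucyl enzyme, had values of 0.37, 0.65 and 0.61 in the control mice and 1.28, 1.23 and 1.25 in the restricted mice. The restricted mice were nearly equal and the lowest of them stood well above the highest control. It rose by 0.71 (standard error 0.16, adjusted p = 0.0187) and by 0.74 within slide 1. Rars2, the mitochondrial arginyl enzyme, had 0.56, 0.06 and 0.47 in the controls and 0.95, 1.18 and 1.06 in the restricted mice, a rise of 0.70 (standard error 0.20, adjusted p = 0.0371). Control mouse 2 was the low animal for Rars2, and the diets did not overlap.

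Sars2, which charges the serine transfer RNAs of the mitochondrion, had -0.82, -0.85 and -0.67 in the controls and -0.32, -0.27 and -0.07 in the restricted mice. Its difference was 0.56 (standard error 0.17, adjusted p = 0.0440). Aars2, the mitochondrial alanyl enzyme, had 0.22, 0.35 and 0.80 in the controls and 1.05, 1.11 and 1.31 in the restricted mice, with a difference of 0.70 (standard error 0.21, adjusted p = 0.0447). For both genes every restricted mouse exceeded every control mouse, by the smallest margin for Aars2 in control mouse 3. Sars2 and Aars2 were called just inside the threshold. Within slide 1 the difference was 0.58 for Rars2, 0.46 for Sars2 and 0.60 for Aars2, with adjusted p of 0.349, 0.391 and 0.358.

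**Figure D2:**
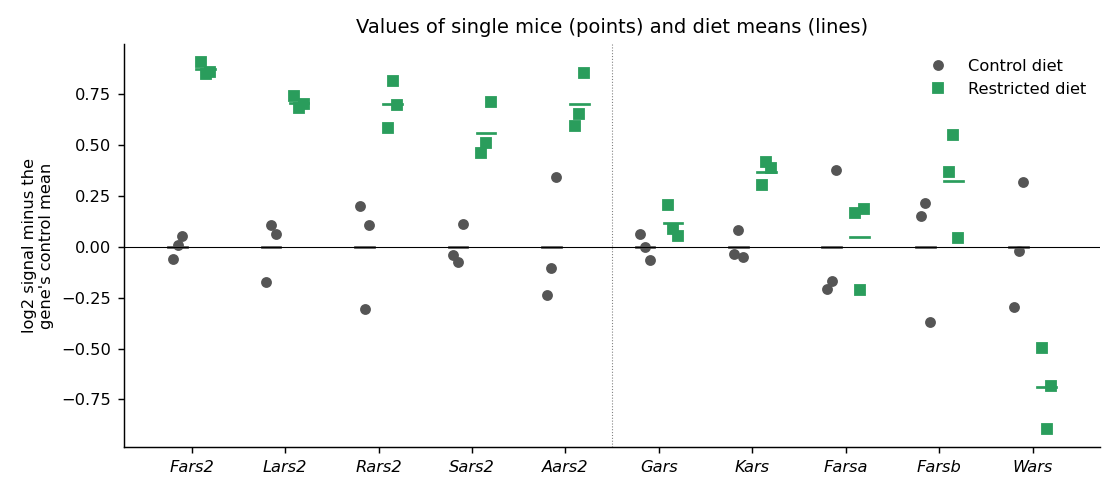
Value of each mouse (points) and the mean of each diet (lines) for the 5 called mitochondrial enzymes on the left and for 5 cytosolic genes on the right, in log2 signal relative to the gene's control mean. The squares of the restricted mice lie above all control points for the 5 mitochondrial genes, and the diets overlap for Gars, Farsa and Farsb.

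A further 5 mitochondrial enzymes had diets that did not overlap but missed the threshold: Hars2, Yars2, Iars2, Vars2 and Pars2. Hars2, the histidyl enzyme, had 0.63, 0.50 and 1.00 in the controls and 1.12, 1.55 and 1.47 in the restricted mice (difference 0.67, adjusted p = 0.0553). Yars2, the tyrosyl enzyme, had the largest mitochondrial difference, 0.88, with the widest spread of the 5: 0.21, 0.00 and -0.76 in the controls and 0.94, 0.89 and 0.26 in the restricted mice (adjusted p = 0.0805). Mouse 3 was the low animal of either diet for Yars2, and its restricted value stood only just above the highest control. Iars2, the isoleucyl enzyme, had 0.18, -0.17 and -0.47 against 0.48, 0.72 and 0.26 (difference 0.64, adjusted p = 0.0776). Vars2, the valyl enzyme, had -2.29, -1.95 and -1.64 against -1.60, -1.33 and -1.17 (difference 0.59, adjusted p = 0.0954). The margin between the diets was small for Vars2 and rested on control mouse 3. Pars2, the prolyl enzyme, differed by 0.58 (adjusted p = 0.102).

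The remaining mitochondrial enzymes had smaller differences whose intervals held 0. They were 0.24 for Wars2 (tryptophanyl; 95% interval -0.20 to 0.68), 0.21 for Cars2 (cysteinyl; -0.18 to 0.60), 0.03 for Ears2 (glutamyl; -0.35 to 0.41) and -0.16 for Tars2 (threonyl; -0.57 to 0.24). Mars2, the methionyl enzyme, had the widest interval, -1.30 to 0.68 around -0.31, and its probe exceeded background clearly on 5 of the 6 arrays. Nars2 had values of -5.79, -5.86 and -5.61 in the controls and -4.33, -4.99 and -4.71 in the restricted mice. Its probe was well above background in restricted mouse 1 alone, so no fold is given for it.

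Where a gene had a second probe that passed, the probes did not always give the same answer. For Iars2 they gave 0.64 and 0.55, and for Vars2 0.59 and 0.80, the second with an adjusted p of 0.0470 over all probes. For Wars2 the brighter probe gave 0.24 and the dimmer one 0.57 (adjusted p = 0.0433 over all probes). For Cars2 and Tars2 the probes had opposite signs, 0.21 against -0.38 and -0.16 against 0.40, so these 2 genes have no settled direction, and neither have the comparisons with their cytosolic partners that rest on them.

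Among the cytosolic enzymes, Wars stood lowest. Wars charges tryptophan and is induced by interferon gamma. Its values were 2.74, 3.02 and 3.36 in the controls and 2.55, 2.15 and 2.36 in the restricted mice. The diets did not overlap, and the difference was -0.69 with a standard error of 0.22 (adjusted p = 0.0550, just outside the threshold). Its second probe, which covers another stretch of the gene, gave -0.28, and Wars was called lower under 4 of 18 other settings. Cars, the cysteinyl enzyme, was the other cytosolic gene whose restricted mice all lay below the controls, at -0.33 (adjusted p = 0.183).

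The 2 genes that serve both compartments were Gars and Kars. Gars, the glycyl enzyme, had 4.30, 4.23 and 4.17 in the controls and 4.44, 4.32 and 4.29 in the restricted mice, which overlap, and its difference of 0.12 had a 95% interval of -0.25 to 0.48. Kars, the lysyl enzyme, had 2.92, 3.04 and 2.91 in the controls and 3.26, 3.38 and 3.35 in the restricted mice. Kars therefore lay higher in every restricted mouse, by 0.37 with an interval of 0.01 to 0.73, but was not called (adjusted p = 0.121). Without these 2 genes, an alternative chosen after seeing the data, the cytosolic median was 0.08 over 18 genes, again with none called.

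Cytosolic phenylalanyl-tRNA synthetase is built from an alpha and a beta subunit, encoded by Farsa and Farsb. Farsa had 0.87, 0.91 and 1.46 in the controls and 1.25, 0.87 and 1.27 in the restricted mice, a difference of 0.05. Farsb had 0.57, 0.63 and 0.05 in the controls and 0.78, 0.96 and 0.46 in the restricted mice, a difference of 0.32 (adjusted p = 0.345). Control mouse 3 was the highest control for Farsa and the lowest for Farsb, and both genes overlapped between diets, while Fars2, for the same amino acid in the mitochondrion, did not.

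The other cytosolic enzymes with the largest differences were Dars and Mars, both of the multisynthetase complex. Dars, the aspartyl enzyme, had -0.27, -0.09 and 0.43 against 0.30, 0.14 and 1.00 (difference 0.46, adjusted p = 0.296). Mars, the methionyl enzyme, had 0.55, 0.38 and 0.55 against 1.21, 0.91 and 0.58 (difference 0.41, adjusted p = 0.187). For Mars the restricted mice lay above the controls with restricted mouse 3 nearly level with them. Over the 8 enzymes of the complex the median difference was 0.12, and over the 12 outside it 0.07. Kars belongs to the complex too, and its other enzymes lay between -0.16 for Rars and 0.13 for Eprs, the fused enzyme for glutamate and proline. Outside the complex Aars differed by 0.25, Sars and Nars by 0.17 each, Yars by 0.09, Tars by -0.12, Vars by -0.13 and Hars by -0.14, all with overlapping diets. For Yars, too, the probe exceeded background clearly on 5 of the 6.

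The spread between mice of a diet was of like size in both sets. The median SD over genes was 0.19 in controls and 0.22 in restricted mice for the cytosolic enzymes, and 0.26 and 0.15 for the mitochondrial ones. Some cytosolic enzymes varied widely within a diet. Tars, the threonyl enzyme, had 2.75 and 2.81 in control mice 1 and 2 but 1.74 in control mouse 3 (SD 0.60), and Nars, the asparaginyl enzyme, had 2.08 and 2.14 there but 1.23 in control mouse 3 (SD 0.51). Among restricted mice, restricted mouse 1 was the highest for 13 of 20 cytosolic and 3 of 15 mitochondrial enzymes.

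The 2 sets were also compared mouse by mouse, by taking for each mouse the median, over the genes of a set, of its value minus the gene's control mean. For the mitochondrial set it was -0.04, -0.02 and 0.11 in the controls and 0.46, 0.65 and 0.44 in the restricted mice. For the cytosolic set it was 0.02, -0.03 and 0.05 in the controls and 0.24, 0.02 and 0.05 in the restricted mice. Over all features it was -0.06, 0.00 and 0.07, then 0.12, 0.09 and 0.16. Every restricted mouse was thus higher for the mitochondrial set than for the cytosolic set, by 0.22, 0.63 and 0.39, where the control mice gave -0.06, 0.01 and 0.06. The smallest of these gaps was in restricted mouse 1, the restricted mouse hybridised on the slide of the controls. This mouse stood apart from the other 2 in its cytosolic value. Since the members were chosen with earlier results known, no p is given for these medians.

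**Figure D3:**
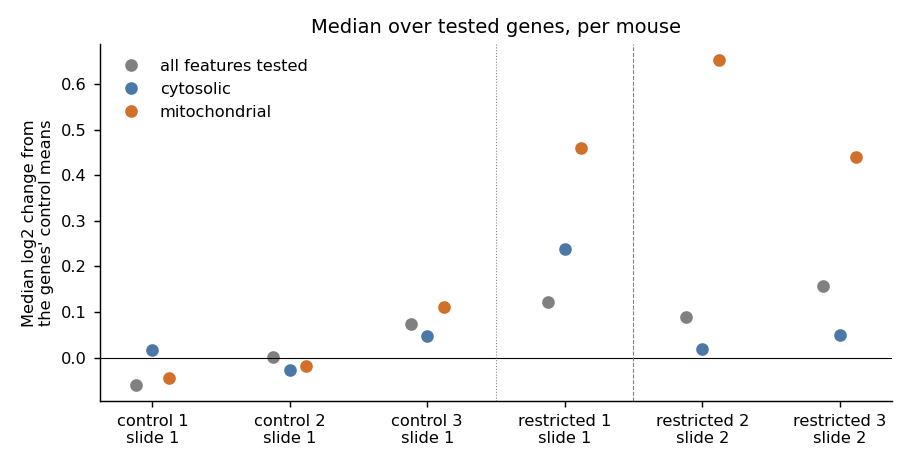
Median change from the control means over all features, the cytosolic set and the mitochondrial set, in log2 units for each mouse; the dotted line separates the diets and the dashed line the slides. The mitochondrial points of the 3 restricted mice, 0.44 to 0.65, lie above every other point.

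Setting the 2 enzymes for the same amino acid side by side gave 15 pairs, with Eprs set against both Ears2 and Pars2 and the mean of Farsa and Farsb against Fars2. The mitochondrial enzyme had the larger difference in 12 of 15 pairs, and the median gap between the partners was 0.54. In 8 pairs the gap was larger in every restricted mouse than in any control mouse, namely those for cysteine, phenylalanine, histidine, isoleucine, leucine, arginine, serine and tryptophan. In 0 pairs was it smaller in every restricted mouse. Of single features 26.1% had all restricted mice above all controls. The share for gaps between genes over the whole array was not computed, so the count of 8 has no like share beside it. The gap was 0.93 for tryptophan, with Wars at -0.69 and Wars2 at 0.24, and 0.86 for arginine, with Rars at -0.16 and Rars2 at 0.70. The 3 pairs that ran the other way were those for methionine (Mars 0.41, Mars2 -0.31), threonine (Tars -0.12, Tars2 -0.16) and glutamate (Eprs 0.13, Ears2 0.03). With the second probe of Cars2 the gap for cysteine was -0.05 in place of 0.54, and with that of Tars2 the gap for threonine was 0.52 in place of -0.05, so both pairs turned; for Iars2, Vars2 and Wars2 the second probe kept the sign. The second probes were tried here after seeing the data. With 3 mice against 3, an exact permutation test of a single pair cannot give a two-sided p below 0.1, so no pair is called. The probes of paired enzymes share at most 8 bases in a row, leaving aside Rars and Rars2, for which no shared run was recorded.

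**Figure D4:**
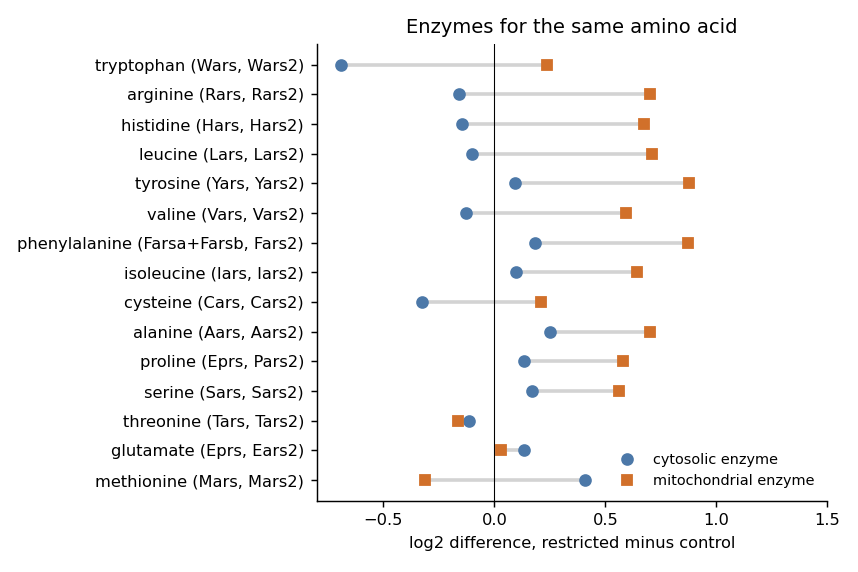
Difference in log2 signal, restricted minus control, for the cytosolic (circles) and mitochondrial (squares) enzyme of each amino acid, ordered by the gap between them. The square lies to the right of the circle in 12 of the 15 pairs, and methionine has the widest gap in the other direction.

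Synthetases fall into 2 unrelated structural classes. Of the mitochondrial class I enzymes 2 of 9 were called higher with a median of 0.59 (Lars2 and Rars2), and of the class II enzymes 3 of 6 tested with a median of 0.63 (Fars2, Sars2 and Aars2). The cytosolic class I enzymes had a median of -0.10 over 9 genes and the class II enzymes 0.17 over 10, with none called in either class. Against 14.6% of all features called higher, these are shares of few genes, and no test compared the classes. With the slide as a block, or without control mouse 1 or any single restricted mouse, no class I enzyme and 1 class II enzyme, Fars2, were called; without control mouse 2 it was 1 of each class.

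Promoters were read for the called genes and for cytosolic genes that carry a letter pattern of interest. The sequences are those of RefSeq on GRCm38.p6, 250 bases before the annotated start, on the strand of the gene; 13 of the 20 cytosolic and 13 of the 16 mitochondrial members had an entry. Short core motifs were searched on both strands: TGCGCA for NRF1 and CCGGAAG for ETS factors such as GABPA, both regulators of nuclear genes for mitochondrial proteins, AAGATGG for YY1, and TGATGNAA for the C/EBP-ATF element bound by ATF4, the factor that raises many cytosolic synthetases when amino acids are short. No motif contains another. The promoters of Fars2 (chr13:36117393-36117642, plus strand), Rars2 (chr4:34614707-34614956, plus strand), Sars2 (chr7:28741718-28741967, plus strand), Aars (chr8:111033592-111033841, plus strand), Gars (chr6:55037751-55038000, plus strand) and Tars (chr15:11399659-11399908, minus strand) are shown as 3 called mitochondrial enzymes and the 3 cytosolic ones that hold the C/EBP-ATF letters; capitals mark a motif match.
Fars2: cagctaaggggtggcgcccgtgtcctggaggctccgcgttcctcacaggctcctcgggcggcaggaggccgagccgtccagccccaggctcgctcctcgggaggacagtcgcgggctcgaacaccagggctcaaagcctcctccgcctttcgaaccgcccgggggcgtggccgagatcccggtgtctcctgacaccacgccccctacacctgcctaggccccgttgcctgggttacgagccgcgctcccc
Rars2: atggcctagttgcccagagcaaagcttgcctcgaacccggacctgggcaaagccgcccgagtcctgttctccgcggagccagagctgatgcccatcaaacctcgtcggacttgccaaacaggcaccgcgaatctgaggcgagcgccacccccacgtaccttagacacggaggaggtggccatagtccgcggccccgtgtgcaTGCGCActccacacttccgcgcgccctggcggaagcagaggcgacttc
Sars2: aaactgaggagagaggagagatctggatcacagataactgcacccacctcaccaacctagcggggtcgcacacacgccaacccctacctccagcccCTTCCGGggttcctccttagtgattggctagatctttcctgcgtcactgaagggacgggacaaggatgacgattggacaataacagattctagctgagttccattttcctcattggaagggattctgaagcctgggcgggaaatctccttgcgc
Aars: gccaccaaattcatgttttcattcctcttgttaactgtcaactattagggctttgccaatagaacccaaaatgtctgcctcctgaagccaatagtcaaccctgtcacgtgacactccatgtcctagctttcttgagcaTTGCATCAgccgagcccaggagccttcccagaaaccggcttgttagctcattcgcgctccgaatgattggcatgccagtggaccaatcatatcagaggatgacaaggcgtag
Gars: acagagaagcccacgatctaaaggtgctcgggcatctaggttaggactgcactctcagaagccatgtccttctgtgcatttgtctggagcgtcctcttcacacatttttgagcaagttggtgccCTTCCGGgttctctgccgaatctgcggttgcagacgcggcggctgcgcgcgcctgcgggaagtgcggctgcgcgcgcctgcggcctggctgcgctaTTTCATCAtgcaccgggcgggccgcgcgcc
Tars: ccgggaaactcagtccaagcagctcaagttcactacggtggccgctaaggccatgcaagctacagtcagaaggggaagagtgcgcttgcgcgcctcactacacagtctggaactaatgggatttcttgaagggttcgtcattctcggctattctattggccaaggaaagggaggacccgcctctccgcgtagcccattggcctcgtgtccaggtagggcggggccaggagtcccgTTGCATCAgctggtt

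The called genes shared no match in these windows. Rars2 held the NRF1 letters at -48 to -43 relative to its start, Sars2 the ETS letters on the reverse strand at -154 to -148, and Fars2, Lars2 and Aars2 held none of the 4 motifs. Only the first promoter entry of each member was read, and Aars2 had 2 entries. The shares over all promoters count every entry. Over each set, the NRF1 letters were in 1 of 13 mitochondrial and 1 of 13 cytosolic promoters (7.69%, against 6.43% of 32851 promoters), the ETS letters in 3 and 4 of 13 (against 6.91%), and the YY1 letters in 1 and 1 (against 4.49%). The C/EBP-ATF letters were in 3 of 13 cytosolic promoters (23.1%) and in 0 of 13 mitochondrial ones, against 3.45% of all. In Aars they lay at -112 to -105, in Gars at -30 to -23 and in Tars at -15 to -8, all on the reverse strand, and Gars also held the ETS letters at -126 to -120. A match here is a description of the letters, and these 3 cytosolic genes differed by 0.25, 0.12 and -0.12 between the diets, none called.

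Neighbouring steps of mitochondrial protein synthesis were read from lists of their own. The charging partners complete transfer RNAs that the synthetases leave unfinished: the GatCAB amidotransferase turns glutamate into glutamine on its transfer RNA, and Mtfmt formylates the initiator methionine. Of these 4 genes 2 were called higher, the amidotransferase subunits Gatb and Gatc, where 14.6% of all features were called higher. Gatb had 0.89, 1.07 and 0.89 in the controls and 2.41, 2.38 and 2.30 in the restricted mice, a difference of 1.42 (adjusted p = 0.00117), larger than that of any synthetase. Gatc differed by 0.73 (adjusted p = 0.0442). Qrsl1, which encodes the catalytic subunit, had -1.91, -2.55 and -2.26 against -1.83, -2.13 and -2.06 and overlapped between the diets.

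Of 12 genes that process or modify mitochondrial transfer RNAs 4 were called higher and none lower, with a median of 0.66. Of all features 14.6% were called higher and 12.8% lower, with a median of 0.12. Hsd17b10, a subunit of mitochondrial RNase P that also breaks down branched-chain amino acids and fatty acids as a dehydrogenase, rose by 1.39 (adjusted p = 0.00163). Osgepl1, which makes a modified adenosine in those transfer RNAs, rose by 0.84 (adjusted p = 0.0159), and Gtpbp3, which modifies the wobble uridine, by 0.74 (adjusted p = 0.0142). Of 10 mitochondrial translation factors 5 were called higher and none lower, against the same shares of all features, with a median of 0.83. Tufm, the elongation factor that carries charged transfer RNAs to the mitochondrial ribosome, had 2.64, 2.69 and 2.35 in the controls and 3.55, 3.90 and 3.70 in the restricted mice, a rise of 1.15 (adjusted p = 0.00477). Gfm2, a factor of ribosome recycling, rose by 1.09 (adjusted p = 0.00925), and Mtrf1, a release factor, by 1.06 (adjusted p = 0.00631). With the slide as a block 1 gene was called in each of these 3 lists, and the medians within slide 1 were 0.49, 0.61 and 0.73. The charging partners had 1 call without any single mouse other than control mouse 3, the processing genes 2 without control mouse 2 and 1 without restricted mouse 2, and the translation factors 3 without control mouse 2, restricted mouse 1 or restricted mouse 2.

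The cytosolic counterparts gave no call, where 27.5% of all features were called in either direction. The scaffold genes of the multisynthetase complex had 0 of 3 called (unadjusted p under 0.05 in 0), with 0.20 for Aimp1 the smallest p (adjusted p = 0.400). The cytosolic translation factors had 0 of 18 called (unadjusted p under 0.05 in 0) with a median of 0.15, where Eif4g1, the scaffold of the cap-binding complex, had the smallest p (0.46, adjusted p = 0.139). The genes of cytosolic transfer RNA export, processing and quality control had 0 of 11 called with a median of 0.34, but an unadjusted p under 0.05 in 6, 4 higher and 2 lower; Pop1, a protein of nuclear RNase P, had the smallest p (0.85, adjusted p = 0.0626). That last list moved with the settings, with 0 to 3 genes called higher and 0 to 2 lower.

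**Figure D5:**
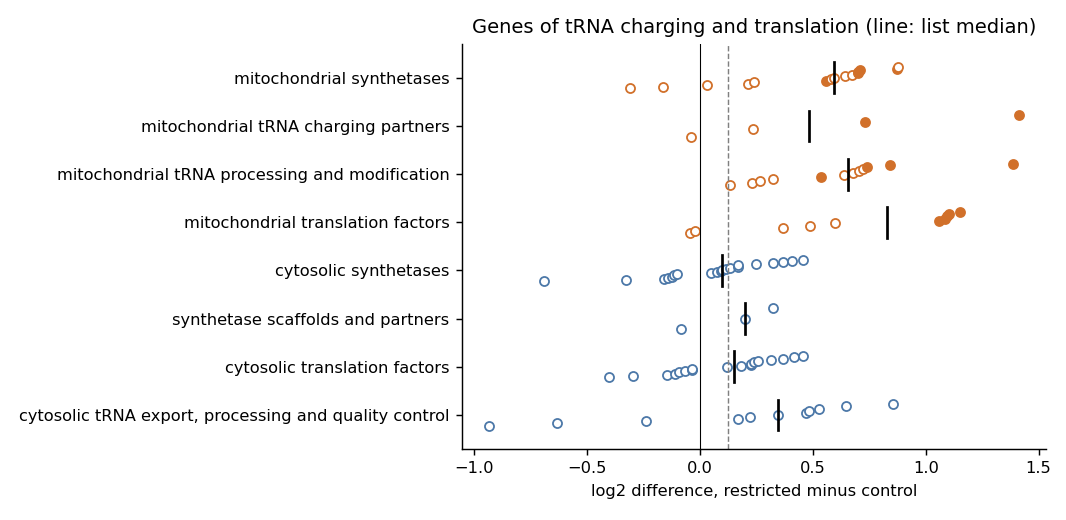
Differences in log2 signal, restricted minus control, of the genes of each list (points, filled where called) with the list's median (bar); the dashed line is the median over all features, 0.12. Filled points are in the 4 mitochondrial lists alone, with medians of 0.48 to 0.83, and the 4 cytosolic lists have medians of 0.10 to 0.34.

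Genes of the amino acid response, which ATF4 raises together with many cytosolic synthetases, were called in both directions. Of 19 tested 3 were called higher and 7 lower, against 14.6% and 12.8% of all features, with a median of -0.23. Vldlr, a lipoprotein receptor, was higher by 3.98 (adjusted p = 5.01e-04). Aldh18a1, of proline synthesis, was not well above background in any restricted mouse and was at least 4.88-fold lower there (adjusted p = 0.00118), a bound set by the lowest signals well above background. Slc7a1, a carrier of arginine and lysine, was at -2.62 (adjusted p = 0.00103). Atf4 and Asns, the asparagine synthetase, were looked at after their values were seen and were not called. Atf4 was at -0.23, and Asns had 0.66, 0.80 and 0.47 in the controls and 1.62, -1.08 and 1.06 in the restricted mice, where restricted mouse 2 stood far below the other 2. Within slide 1 the list's median was 0.11, with the opposite sign, and with the slide as a block 1 gene was called higher and 4 lower. With 1 mouse left out at a time, 1 or 2 of these genes were called higher and 3 to 6 lower.

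Marker genes of several cell types differed between the diets. Of all features 14.6% were called higher and 12.8% lower, the shares to set the counts below against. In whole tissue, fewer cells of a type and less RNA per cell cannot be told apart. Of 9 hepatocyte markers none was called (unadjusted p under 0.05 in 2), and their level summed over the same probes in each mouse, in multiples of the array's 75th percentile, was 897 to 1305 in the controls and 1119 to 1482 in the restricted mice. All 12 macrophage and Kupffer cell markers were lower (summed level 241 to 315 against 40.3 to 57.4), as were 9 of 9 cell division genes (6.13 to 8.46 against 1.01 to 1.65), 6 of 8 stellate cell markers (112 to 147 against 46.0 to 75.2), 5 of 8 neutrophil markers with 1 higher (151 to 181 against 91.8 to 135), 3 of 7 T and NK cell markers (31.3 to 48.6 against 27.7 to 39.1) and 3 of 6 bile duct markers (4.45 to 5.42 against 0.85 to 1.82). Of 8 endothelial markers 4 were higher (22.1 to 33.9 against 38.4 to 51.7), while Cdh5 and Stab2 went the other way, at -0.73 and -0.20, and were not called. A sum is led by its brightest probes: that of the neutrophil list is mostly Csf3r, a receptor gene with means of 6.63 and 6.66 that was not called. That of the T and NK cell list is mostly Cd4, with means of 5.03 in controls and 4.67 in restricted mice, also not called. In that list Cd3e and Nkg7 went the other way, at 0.32 and 0.23, and were not called. In the hepatocyte list, Cyp2e1 and Fgb had nearly equal values on every array, both with means of 7.31 in controls and 7.70 in restricted mice. Alb, Ttr, Serpina1c, Cyp2e1 and Fgb ranked the arrays in the reverse order of the 75th percentile. Alb ran from 6.83 in control mouse 1, where that percentile was 574, to 7.86 in restricted mouse 3, where it was 287. The values of these probes thus followed the scaling of the arrays. Whether they had reached the upper limit of the scanner was not tested. The hepatocyte sum may be capped, and the absence of calls says little about hepatocytes. Of the 3 called bile duct markers, Krt7 and Epcam were not well above background in any restricted mouse. Among probes well above background on all arrays, 1 of 4 bile duct and 3 of 6 neutrophil markers were lower, and 3 of 7 endothelial markers were higher. Calls for macrophage markers and cell division genes were as many without any single mouse. The stellate count fell to 2 without control mouse 2 and to 3 without restricted mouse 2. The neutrophil count fell to 3 without control mouse 1 or 2 or restricted mouse 2 or 3, and the endothelial count to 2 without control mouse 1 or 3 or restricted mouse 1 or 2 (1 in slide 1 alone). Of 3 B cell markers tested none was called (unadjusted p under 0.05 in 1), and Cd79a and Pax5 were not well above background. The part of these marker differences in the synthetase differences, Wars included, was not tested.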

How the data were processed

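RNA from the liver of 6 mice was measured on single-colour Agilent arrays of design 026655 with probes of 60 bases. Processed signals from the deposited scanner files were used as intensity; per the file headers they come from Agilent Feature Extraction 10.7.3.1, while version 9.3.2.1 is named in the submitters' processing notes. A deposited value table holds the same intensity on a linear scale, not centred, within 0.1% for 99.67% to 99.77% of probes, with column medians of 27.52 to 52.12; that scale was found by comparison with the scanner files.

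Outlier spots (127 to 251 of 43020 non-control spots on an array) were dropped. The log2 values were averaged by probe, and each array's 75th percentile was subtracted. A probe was kept if every measured array of 1 diet or more showed it well above background (24234 of 39429). The probe with the highest mean stood for each gene, updated through RefSeq accessions for 26055 probes, which gave 19616 features. They were fitted with limma 3.58.1 in R 4.3.3 with data.table (version 1.17.8). The script was tested on simulated data. P-values set the diet difference against the spread between arrays of a diet, which limma moderates over all features. With 1 array per mouse, that spread holds mouse and array together and, for the restricted diet, the slide.

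The members, the other gene lists and the naming rule were chosen with earlier results of these data known. Values of single mice are given for called members (up to 8 per compartment and direction), for Gars, Kars, Farsa, Farsb and Wars, and for the 4 uncalled members of each compartment with the largest differences; other lists give up to 3 called genes with the smallest p, or 1. Class lists and the complex were taken from textbook knowledge. The control and restricted mice share numbers in their titles. Correlations of the deviations were 0.384, -0.00224 and 0.482 between mice of the same number. Between mice of different numbers they ran from -0.499 to 0.118. Whether the numbers pair the mice is not settled by these values, and the main fit did not pair them. Alternatives changed the background correction, scaling, filter, probe choice, test, slide and mice. Probe coordinates of the files are on mm9, for which no gene models were used here.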

Additional observations from a re-analysis of the deposited data

How the results depend on the processing

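The higher mitochondrial enzymes numbered 5 and ranged from 3 to 7 under normexp, quantile or median scaling, the deposited table, no filter (3, namely Fars2 and Lars2 of the 5, and Nars2, whose probe is not above background), a stricter filter, the mean of all probes, and trend and robust moderation. Array weights gave 10 (11 members in all with Wars), the mouse number as a replicate block 9, slide as a block 1 and slide 1 alone 0; leaving out 1 mouse at a time gave 1 to 7, for the mitochondrial enzymes and for all members alike. Features called higher over the whole array, 2868 in the main fit, moved too. They were 4356 with array weights, 3651 with the mouse block, 1121 with slide as a block, and 1549 to 3319 with 1 mouse left out. With normexp they were 2519, with median scaling 3668, and with no filter 2232 of 31896. No cytosolic enzyme was called higher and no mitochondrial one lower under any setting run. Cytosolic enzymes called lower numbered 1 with normexp, trend and robust moderation, or array weights, and 2 with quantile normalization (Wars and Cars). The mitochondrial median stayed positive, at 0.47 with normexp and 0.46 with either slide setting. The cytosolic median was -0.046 with quantile normalization, 0.19 with median scaling, 0.24 with either slide setting and 0.0062 to 0.14 with 1 mouse left out. The gap between the medians stayed positive and fell to 0.22 with either slide setting. Scaling moved the median of all features, 0.12, to 0.07 with quantile normalization and 0.21 with median scaling.

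Differences near 0 changed sign. With normexp Rars was at 0.051 and Mars2 at 0.18. With quantile normalization Aars was at -0.045, Farsa at -0.050, Gars at -0.17, Iars at -0.0022, Qars at -0.13 and Sars at -0.044. With the mean of all probes Cars2 was at -0.082 and Tars2 at 0.12. With array weights Nars was at -0.020, Yars at -0.12 and Ears2 at -0.0098. With either slide setting Lars was at 0.10, Rars at 0.25 and Ears2 at -0.0028. With 1 mouse left out, the ranges that crossed 0 were -0.0090 to 0.23 for Eprs, -0.056 to 0.24 for Farsa, -0.12 to 0.27 for Iars, -0.12 to 0.33 for Nars, -0.36 to 0.030 for Rars, -0.46 to 0.073 for Tars, -0.15 to 0.43 for Yars, -0.039 to 0.086 for Ears2 and -0.60 to 0.10 for Mars2. Over the members and settings 540 values kept direction and side of the threshold, 35 lost a call, 21 gained one and 32 changed sign. The cause was not tested. Dim probes (Nars2, Mars2, Yars) and 3 mice per diet limit what can be told.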
